A study of Mus musculus with 6 samples.

Results

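The genes described here are 10 chemokine genes that carcinoma cells can secrete: Ccl2, Ccl5, Ccl7, Ccl20, Cxcl1, Cxcl2, Cxcl5, Cxcl10, Cxcl12 and Cxcl16. They were taken by gene symbol from the 24346 symbols that each library lists, and all 10 were found. RNA was sequenced from 4T1, a mouse mammary carcinoma line that metastasises when grafted into mice. WT cells were mock transfected, while shRNA1 and shRNA3 cells each carried a different hairpin RNA that targets AU021063, a long noncoding RNA, and each group had 2 libraries. No further treatment, time point or non-targeting hairpin is named in the labels, which also leave out whether a hairpin line is 1 clone or a pool and whether both libraries of 1 group stem from different cultures. The p-values below therefore rest on library-to-library spread alone, and that spread could be technical. The question put to the chemokines was how their transcripts stood with each hairpin against the mock cells and whether both hairpins moved them alike.

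Chemokines are small secreted proteins that draw leukocytes along a gradient by binding receptors of the G protein-coupled class. CC chemokines such as Ccl2, Ccl7 and Ccl5 mainly attract monocytes and T cells, and CXC chemokines with a Glu-Leu-Arg motif, such as Cxcl1, Cxcl2 and Cxcl5, attract neutrophils through Cxcr2. Their genes sit in tight clusters, respond fast to NF-kB and interferon signalling, and their mRNAs are often short-lived. In 4T1 tumours, chemokines are known for the recruitment of myeloid cells.

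The upstream sequences of 3 CXC members are shown first, because Cxcl1 and Cxcl2 are neighbours with the same motifs and levels far apart, while Cxcl10 also carries an interferon-type motif. The sequences are the 250 bases before the RefSeq start (GRCm38.p6), given 5′ to 3′ on the gene's strand, and cover chr5:90890995-90891244 on the plus strand for Cxcl1, chr5:90903649-90903898 on the plus strand for Cxcl2 and chr5:92348890-92349139 on the minus strand for Cxcl10. Capitals mark matches on either strand to a kB-type motif (GGG, any 3 bases, TTCC), a TATA-type motif (ATAAAAG), an interferon-type motif (GAAA, any 2 bases, GAAA) and an AP-1-type motif (TGANTCA), and a kB-type match on 1 strand can overlap one on the other.
Cxcl1: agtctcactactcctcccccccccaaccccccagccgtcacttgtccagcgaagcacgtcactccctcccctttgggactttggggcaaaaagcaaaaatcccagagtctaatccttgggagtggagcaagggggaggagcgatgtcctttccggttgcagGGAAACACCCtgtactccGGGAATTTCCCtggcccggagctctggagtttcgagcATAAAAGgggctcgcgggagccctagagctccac
Cxcl2: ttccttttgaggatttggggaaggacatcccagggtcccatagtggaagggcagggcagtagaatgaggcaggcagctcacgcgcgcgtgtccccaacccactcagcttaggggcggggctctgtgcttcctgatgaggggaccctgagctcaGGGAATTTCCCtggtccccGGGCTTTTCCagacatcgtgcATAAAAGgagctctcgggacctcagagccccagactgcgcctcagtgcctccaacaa
Cxcl10: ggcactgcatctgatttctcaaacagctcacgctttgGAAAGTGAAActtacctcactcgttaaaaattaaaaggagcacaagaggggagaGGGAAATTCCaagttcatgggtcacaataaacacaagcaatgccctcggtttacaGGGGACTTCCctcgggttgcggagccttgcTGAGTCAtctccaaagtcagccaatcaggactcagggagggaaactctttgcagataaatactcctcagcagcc
The longest run that the Cxcl1 and Cxcl2 windows share is GGGAATTTCCCTGG. This run is 14 bases long and begins 71 bases before the RefSeq start of Cxcl1 and 97 bases before that of Cxcl2. The GENCODE starts given below, 90891241 for Cxcl1 and 90903871 for Cxcl2, lie inside these windows, so both distances depend on the annotation. The shared run holds the kB-type match GGGAATTTCC, and a TATA-type match follows the run in both. Cxcl10 holds the kB-type matches GGGAAATTCC and GGGGACTTCC, the interferon-type match GAAAGTGAAA and the AP-1-type match TGAGTCA. The RefSeq table had a window for 5 of the 10 members (Ccl20, Cxcl1, Cxcl2, Cxcl10 and Cxcl12), and 4 of these 5 held a kB-type match, which 4.65% of all 32851 windows of this length hold. The TATA-type match stood in 2 of the 5 (4.83% of all windows), the interferon-type match in 1 (2.98%) and the AP-1-type match in 1 (6.75%). These matches describe letters and do not show that a factor binds.

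Each value is in FPKM, which scales a gene's fragments by transcript length and by the library's mapped total, so levels can be set side by side between genes. The libraries summed to between 560862 and 604022 FPKM, and their depth stood between 86.8% and 105.3% of that of WT replicate 1. AU021063 itself was low, at 1.82 and 1.67 FPKM for WT, 1.04 and 0.572 under shRNA1, and 0.785 and 0 under shRNA3. Markers of other cells were looked at because leukocytes and fibroblasts make these chemokines too. All 3 leukocyte, 4 T cell, 3 B cell and 4 endothelial markers stayed under 1 FPKM in every library, with Ptprc at 0 in all. The macrophage list summed to between 6.73 and 6.76 FPKM for WT, 16.0 and 18.5 under shRNA1 and 27.7 and 28.1 under shRNA3, nearly all of it from Cd68, with C1qa and C1qb at 0 in all 6 libraries and Csf1r at no more than 0.019. The neutrophil list summed to between 72.2 and 85.4, 61.8 and 62.2, and 10.9 and 11.1 FPKM in the same order, nearly all from S100a8, with Mpo at 0 and S100a9 at no more than 0.398. The carcinoma keratins Krt8 and Krt18 were at 263 FPKM or more in every library, whereas Epcam (2.04 to 5.14) and Cdh1 (1.22 to 1.84) were low and the fibroblast marker Pdgfra was at 37.9 to 49.96, with Col1a2 at no more than 0.014. The fibroblast list (6 of 6 present, 2 under 1 FPKM in all libraries) summed to 80.5 and 81.8 FPKM for WT, 96.8 and 98.3 under shRNA1, and 106 and 108 under shRNA3. Its members did not move alike. Dcn went from 10.4 and 11.0 to 34.8 and 37.0, and to 44.4 and 46.1, and the low Col1a1 also rose. Pdgfra went the other way, from 49.96 and 49.7 FPKM for WT to 41.9 and 41.8 under shRNA1 and 37.9 and 39.7 under shRNA3. Pdgfrb stayed between 17.9 and 21.8. The epithelial list (6 of 6 present, 1 under 1 FPKM) summed to 929 and 962, 1021 and 1090, and 734 and 737 FPKM, nearly all from Krt8 and Krt18. Krt8, Krt18 and Krt7 were lower under shRNA3 than in WT, with Krt8 at 266 and 263 against 421 and 435. Epcam and Cdh1 were instead higher under shRNA3, at 3.04 and 3.51 against 2.18 and 2.04, and at 1.64 and 1.575 against 1.28 and 1.22. The part of these shifts in the chemokine results was not tested. In bulk RNA, fewer cells of a kind and less RNA per cell cannot be told apart.

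In WT cells the chemokine transcripts were led by 4 genes. Cxcl1 stood at 537 ± 3.57 FPKM (SD, n = 2), Cxcl5 at 398 ± 21.0, Ccl2 at 267 ± 3.77 and Ccl5 at 150 ± 18.1. In WT replicate 1, Cxcl1 ranked 136 among all 24346 symbols, Cxcl5 181, Ccl2 274 and Ccl5 544. Then came Cxcl16 at 27.9 ± 0.454, Cxcl10 at 17.3 ± 0.679, Ccl7 at 11.8 ± 0.276 and Ccl20 at 2.72 ± 0.0247 FPKM. Each step in this order was larger than the spread within its neighbours' libraries. Cxcl2 was at 0.247 ± 0.148 FPKM, and Cxcl12 was listed at 0 in every library. Of the FPKM summed over all 38 chemokine ligand genes examined, the 4 leading genes made up between 92.0% and 94.9% in each library. This sum was 1442 and 1437 FPKM for WT, 1759 and 1809 under shRNA1, and 1360 and 1300 under shRNA3, so the groups did not overlap. The share of Cxcl1 was 37.4% and 37.2% in WT, 42.7% and 41.2% under shRNA1, and 31.2% and 29.4% under shRNA3, while that of Ccl2 was 18.3% and 18.8%, 21.1% and 21.6%, and 28.7% and 29.4%. The levels of Cxcl1 and Ccl2 were close to each other under shRNA3, where their ratio (Cxcl1 over Ccl2) was 1.086 and 1.003, against 1.91 to 2.04 in the other libraries.

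**Figure D1:**
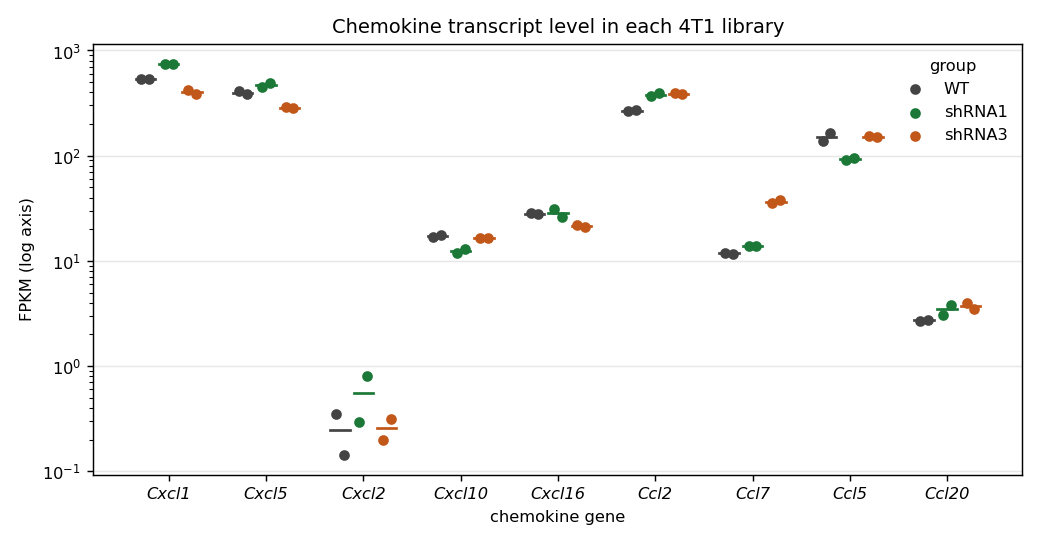
Level of 9 chemokine genes in FPKM (log axis), with 1 point for each library and a line at the mean of each group of 2. Cxcl12 is not drawn, as it is listed at 0. Cxcl1 and Cxcl5 lie highest under shRNA1 and lowest under shRNA3, and Ccl7 stands at 35.4 and 37.8 FPKM under shRNA3 against 11.6 to 13.8 elsewhere.

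Changes were tested with limma on log2(FPKM + 1) over the 11079 genes that averaged 1 FPKM or more, and a gene was called where the Benjamini-Hochberg adjusted p was under 0.05. Of the 10 members 8 passed this filter, and Cxcl2 and Cxcl12 did not. With shRNA1, 4 members were higher than in WT (Cxcl1, Cxcl5, Ccl2 and Ccl7) and 2 were lower (Ccl5 and Cxcl10), beside 36.0% of all genes tested that were called in this comparison (17.6% higher, 18.4% lower). With shRNA3, 3 were higher (Ccl2, Ccl7 and Ccl20) and 3 lower (Cxcl1, Cxcl5 and Cxcl16), beside 55.2% of all genes (27.4% higher, 27.8% lower). Between the hairpins, 3 were higher under shRNA3 (Ccl5, Ccl7 and Cxcl10) and 3 lower (Cxcl1, Cxcl5 and Cxcl16), beside 42.5% of all genes (22.0% higher, 20.5% lower). The median size of the log2 change over the 8 tested members was 0.35 under shRNA1, 0.40 under shRNA3 and 0.56 between the hairpins, next to 0.15, 0.22 and 0.17 over all genes tested. Both comparisons against WT share the same 2 WT libraries.

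**Figure D2:**
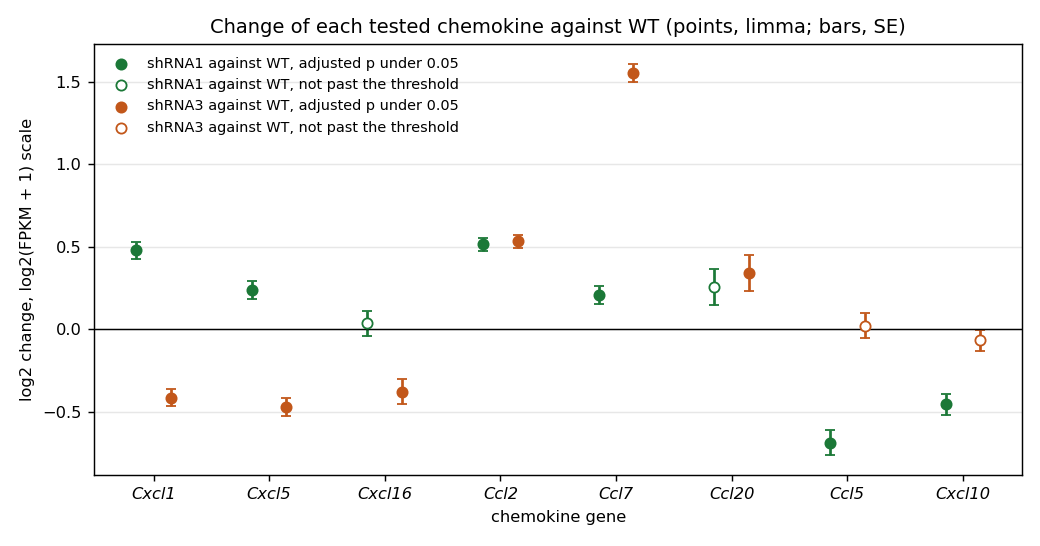
Log2 change against WT on the log2(FPKM + 1) scale of the 8 tested chemokine genes, with bars of 1 SE. Filled points passed the threshold. Cxcl1 and Cxcl5 are above 0 under shRNA1 and below 0 under shRNA3, Ccl2 is at 0.51 and 0.53, and Ccl7 reaches 1.55 under shRNA3.

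Of the neutrophil-attracting CXC genes, Cxcl1 and Cxcl5 rose under shRNA1 and fell under shRNA3. Cxcl1 (ENSMUSG00000029380.11, chromosome 5, 90891241 to 90893115, plus strand, mm10) was at 540 and 535 FPKM for WT, 750 and 745 under shRNA1, and 424 and 383 under shRNA3. No library of a group came within the range of another group. Cxcl1 was 1.39-fold higher under shRNA1 (log2 change 0.48 ± 0.05 SE, adjusted p = 3.43e-04, limma) and 1.33-fold lower under shRNA3 (-0.42 ± 0.05, adjusted p = 3.35e-04), and 1.86-fold lower under shRNA3 than under shRNA1 (-0.89 ± 0.05, adjusted p = 2.38e-05). Averaged over both hairpins the log2 change was 0.03, with a 95% interval from -0.07 to 0.13.

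Cxcl5 (ENSMUSG00000029371.7, chromosome 5, 90759360 to 90761624, plus strand), a ligand of the same receptor, was at 413 and 383 FPKM for WT, 450 and 488 under shRNA1, and 290 and 282 under shRNA3. Its 3 groups did not overlap, in the order shRNA1, WT, shRNA3, the order also seen for Cxcl1. The fall under shRNA3 was 1.39-fold (log2 change -0.47 ± 0.05, limma adjusted p = 2.28e-04). The rise under shRNA1 was 1.18-fold (0.24 ± 0.05, adjusted p = 0.0116), and this call was lost with quantile normalization (0.10, adjusted p = 0.180), without WT replicate 2 (0.18, adjusted p = 0.0739) and without shRNA1 replicate 2 (0.18, adjusted p = 0.0779). The hairpins themselves differed by 1.64-fold (-0.71 ± 0.05, adjusted p = 7.53e-05). Over the 6 libraries the log2 values of Cxcl1 and Cxcl5 had a Pearson r of 0.960, a description of 3 groups of 2 libraries rather than of 6 independent conditions. The ratio of Cxcl1 to Cxcl5 ran from 1.31 to 1.67 over the libraries.

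Cxcl2 (ENSMUSG00000058427.10, chromosome 5, 90903871 to 90905938, plus strand), the closest relative of Cxcl1 among the members, was at 0.351 and 0.142 FPKM for WT, 0.296 and 0.809 under shRNA1, and 0.200 and 0.314 under shRNA3. The value of 1 fragment was estimated from the shortest annotated coding transcript, of 1109 bases. The longest has 1859 bases and would give more fragments. At the estimated 0.0676 FPKM for 1 fragment in WT replicate 1, the Cxcl2 values come to about 5.2, 2.1, 4.2, 10, 3.1 and 4.2 fragments. They were taken as 5, 2, 4, 10, 3 and 4, with a value of 0.0702 FPKM that was chosen near that estimate so that Cxcl2's own values come out whole, which makes the wholeness no check of these numbers. Summed by group this gives 7, 14 and 7 fragments, or 0.247 FPKM in WT (95% exact Poisson interval 0.099 to 0.509), 0.541 under shRNA1 (0.296 to 0.908) and 0.252 under shRNA3 (0.101 to 0.520). The intervals overlap, cover counting error only, and leave a difference between the groups not detectable at this depth. The Cxcl1 gene ends 10.8 kb before Cxcl2 begins, so transcripts of these neighbours, whose windows share the kB-type run shown above, stood at 537 against 0.247 FPKM in WT. No window of 50 bases of the annotated coding transcripts of Cxcl1 recurs in another gene, while 3.28% of those of Cxcl2 recur in Cxcl3.

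The genes between Cxcl5 and Cxcl1 were low as well. Ppbp, Pf4, Cxcl3 and Cxcl15, all CXC ligands, reached at most 1.41, 1.14, 0.216 and 0.287 FPKM in any library. Ppbp, 6.9 kb downstream of Cxcl5 and also a Cxcr2 ligand gene, was at 0.775 and 0.713 FPKM for WT, 1.41 and 1.38 under shRNA1, and 0.668 and 0.867 under shRNA3. Its mean over the libraries was under the filter, so it was not tested. Cxcl5 and Cxcl1 thus flanked 4 genes of low level, and Cxcl2, also low, lay beyond Cxcl1.

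**Figure D3:**
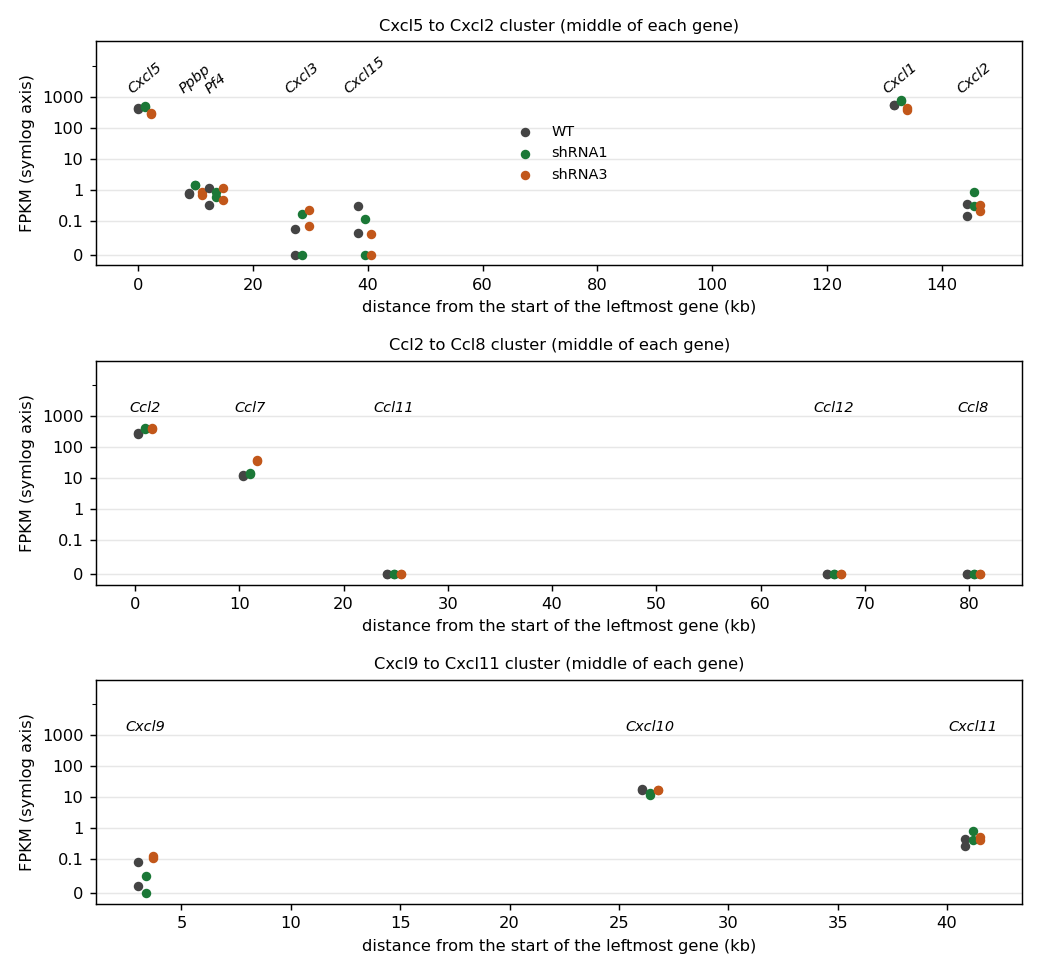
FPKM (symmetric log axis, linear below 0.1) of the genes of 3 chemokine clusters against their distance in kb from the start of the leftmost gene, with 1 point for each library and groups drawn slightly apart. In the upper panel Cxcl5 and Cxcl1 stand at 282 FPKM or more and the others at 1.41 or less, in the middle panel Ccl11, Ccl12 and Ccl8 are at 0, and in the lower panel Cxcl10 stands above Cxcl9 and Cxcl11.

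Among the monocyte-attracting CC genes, Ccl2 and Ccl7 both rose with each hairpin but by different amounts. Ccl2 (ENSMUSG00000035385.5, chromosome 11, 82035571 to 82037453, plus strand), the main ligand of Ccr2, was at 264 and 269 FPKM for WT, 372 and 390 under shRNA1, and 390 and 382 under shRNA3. All 4 knockdown libraries lay above both WT libraries, and those of the hairpins overlapped. The rise was 1.43-fold under shRNA1 (log2 change 0.51 ± 0.04, limma adjusted p = 7.96e-05) and 1.45-fold under shRNA3 (0.53 ± 0.04, adjusted p = 3.56e-05). The difference between the hairpins was 0.02, with a 95% interval from -0.08 to 0.11 and adjusted p = 0.755.

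Ccl7 (ENSMUSG00000035373.2, chromosome 11, 82045712 to 82047525, plus strand) lies 8.3 kb beyond Ccl2 and encodes a further Ccr2 ligand. It was at 12.0 and 11.6 FPKM for WT, 13.8 and 13.7 under shRNA1, and 35.4 and 37.8 under shRNA3. The 3 groups did not overlap, and the shRNA3 libraries stood far above the rest. The rise under shRNA3 was 3.10-fold (log2 change 1.55 ± 0.055, limma adjusted p = 1.03e-06), the largest change of any tested member in either comparison with WT. With shRNA1 it was 1.17-fold (0.21 ± 0.055, adjusted p = 0.0217). That call under shRNA1 was lost without any 1 of the WT or shRNA1 libraries (adjusted p from 0.0552 without WT replicate 1 to 0.0975 without WT replicate 2, with 0.0863 and 0.0741 without shRNA1 replicates 1 and 2) and with libraries rescaled to the same total (0.0966). Ccl7 was 2.66-fold higher under shRNA3 than under shRNA1 (1.35 ± 0.055, adjusted p = 7.58e-06). The ratio of Ccl2 to Ccl7 was 22.01 and 23.2 in WT, 26.9 and 28.5 under shRNA1, and 11.0 and 10.1 under shRNA3. The next genes of the cluster, Ccl11, Ccl12 and Ccl8, were listed at 0 in all 6 libraries.

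Ccl5 and Cxcl10, genes that interferon signalling is known to induce in many cells, fell under shRNA1 and differed between the hairpins. Ccl5 (ENSMUSG00000035042.2, chromosome 11, 83525778 to 83530518, minus strand) was at 137 and 163 FPKM for WT, 90.1 and 94.6 under shRNA1, and 154 and 149 under shRNA3. The shRNA1 libraries lay below all others, and the shRNA3 libraries lay between those of WT. With shRNA1 Ccl5 fell 1.62-fold (log2 change -0.69 ± 0.075, limma adjusted p = 3.53e-04). With shRNA3 the change was 0.02, with a 95% interval from -0.15 to 0.19 (adjusted p = 0.830). Ccl5 was 1.64-fold higher under shRNA3 than under shRNA1 (0.71 ± 0.075, adjusted p = 3.03e-04). Its neighbours Ccl9, Ccl6, Ccl3 and Ccl4 reached at most 0.322, 0.053, 0.302 and 0.130 FPKM.

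Cxcl10 (ENSMUSG00000034855.13, chromosome 5, 92346638 to 92348889, minus strand), a ligand of Cxcr3, was at 16.8 and 17.8 FPKM for WT, 11.7 and 12.9 under shRNA1, and 16.5 and 16.4 under shRNA3. The shRNA1 libraries were the lowest, and the shRNA3 libraries stood just under both WT libraries. The fall under shRNA1 was 1.40-fold (log2 change -0.46 ± 0.06, limma adjusted p = 0.00124). With shRNA3 the change was -0.07, with a 95% interval from -0.22 to 0.08 (adjusted p = 0.387), and the hairpins differed by 0.39 ± 0.06 (adjusted p = 0.00227). The log2 values of Ccl5 and Cxcl10 had a Pearson r of 0.974 over the 6 libraries, which form 3 groups. Cxcl9 and Cxcl11, which encode the other Cxcr3 ligands and lie on either side of Cxcl10, reached at most 0.127 and 0.820 FPKM.

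Cxcl16 (ENSMUSG00000018920.11, chromosome 11, 70453983 to 70459984, minus strand) encodes a membrane-bound chemokine that is shed by Adam10 and binds Cxcr6. It was at 28.3 and 27.6 FPKM for WT, 31.2 and 26.3 under shRNA1, and 21.7 and 20.8 under shRNA3. The WT libraries lay between those of shRNA1, and the shRNA3 libraries lay below all others. Cxcl16 fell 1.31-fold under shRNA3 (log2 change -0.38 ± 0.08, limma adjusted p = 0.00393) and differed by -0.41 ± 0.08 between the hairpins (adjusted p = 0.00407). With shRNA1 the change was 0.035, with a 95% interval from -0.14 to 0.21 (adjusted p = 0.760). Adam10, the protease gene, was at 67.1 ± 3.78 FPKM for WT, 44.8 ± 1.83 under shRNA1 and 62.5 ± 2.86 under shRNA3, and fell under shRNA1 (-0.57 ± 0.06, adjusted p = 2.59e-04) but did not pass under shRNA3 (-0.10 ± 0.06, adjusted p = 0.179).

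Ccl20 (ENSMUSG00000026166.14, chromosome 1, 83116766 to 83119167, plus strand), the ligand of Ccr6, was at 2.70 and 2.74 FPKM for WT, 3.06 and 3.84 under shRNA1, and 3.95 and 3.50 under shRNA3. All knockdown libraries were above WT, and the hairpins overlapped. These values rest on few fragments, estimated at 25 in each WT library and 27 to 39 in the others. The estimate uses the shortest annotated coding transcript, of 772 bases, and the longest, of 1417 bases, would give more. The log2 change was 0.34 ± 0.11 under shRNA3 (limma adjusted p = 0.0286) and 0.25 ± 0.11 under shRNA1 (adjusted p = 0.107). The call under shRNA3 was lost without WT replicate 1 (adjusted p = 0.0909), WT replicate 2 (0.0795) or shRNA3 replicate 1 (0.143), without the filter (0.0630) and with libraries rescaled to the same total (0.0534).

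Cxcl12 (ENSMUSG00000061353.11, chromosome 6, 117168535 to 117181367, plus strand), a chemokine of stromal cells and the ligand of Cxcr4 and Ackr3, was listed at 0 in all 6 libraries. With its shortest annotated coding transcript of 1878 bases, 3 fragments would come to 0.127 FPKM in the shallowest library. The number 3 was set as the floor for a count of 0, which itself fixes no maximum. None of 72 cytoplasmic ribosomal protein genes was at 0 in all libraries, and 14 of the 38 ligand genes were.

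Over both hairpins 3 of the 8 tested members were higher (Ccl2, Ccl7 and Ccl20) and 2 lower (Ccl5 and Cxcl10), beside 50% of all genes called in that comparison (24.1% higher, 25.9% lower). The members' median log2 change was -0.04, against -0.01 over all genes. Fitting the 4 knockdown libraries as 1 group, so that the difference between hairpins counted as spread, left 1 of these 5 calls, that of Ccl2. The share of all genes called in that fit was 13.7%, so the loss was not particular to the members. Without WT replicate 2 the calls of Ccl20 and Cxcl10 were lost, with log2 changes of 0.304 and -0.224. The Ccl20 call over both hairpins was also lost without WT replicate 1, shRNA1 replicate 2 or shRNA3 replicate 1 (log2 change 0.291, 0.234 and 0.263). It was lost too without the filter (limma adjusted p = 0.0679) and with libraries rescaled to the same total (0.0572). Cxcl16 became a call without shRNA1 replicate 1 (log2 change -0.23, adjusted p = 0.00904), and Cxcl5 without shRNA1 replicate 2 (-0.15, adjusted p = 0.0404). The replicate number as a block added a call of Cxcl16 (log2 change -0.17, adjusted p = 0.0445, against 0.0629 without the block).

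Other chemokine ligands and receptors were mostly below the filter. Of 28 other ligand genes 2 were tested. Ccl25 was at 2.19 ± 0.274 FPKM for WT, 1.44 ± 0.520 under shRNA1 and 1.13 ± 0.174 under shRNA3, and was lower under shRNA3 (log2 change -0.58 ± 0.16, limma adjusted p = 0.0167), a call lost when WT replicate 2 or shRNA3 replicate 1 was left out. Cx3cl1, which encodes the membrane-bound chemokine fractalkine and was singled out after its values were seen, was at 23.0 and 22.9 FPKM for WT, 30.2 and 29.3 under shRNA1, and 19.95 and 21.0 under shRNA3. It rose under shRNA1 (0.36 ± 0.05, adjusted p = 0.00129) and fell under shRNA3 (-0.15 ± 0.05, adjusted p = 0.0327), and the latter call was lost without either WT library, without shRNA3 replicate 1 and with the replicate block.

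Of 23 receptor genes 3 passed the filter, and Cxcr2 was not among them. Ackr3, the scavenging receptor of Cxcl12, was at 43.6 ± 2.22 FPKM for WT, 61.8 ± 0.0177 under shRNA1 and 45.0 ± 2.10 under shRNA3, and rose under shRNA1 (0.49 ± 0.05, limma adjusted p = 3.58e-04). Ccrl2, a chemerin-binding receptor gene, and Cxcr4, both named after their values were seen, were at 8.14 and 1.36 FPKM for WT, 9.93 and 1.86 under shRNA1, and 6.43 and 0.903 under shRNA3. All 3 were lower under shRNA3 than under shRNA1 (adjusted p = 5.39e-04 for Ackr3, 8.56e-04 for Ccrl2 and 0.0108 for Cxcr4, limma). In that comparison 20.5% of all genes tested were called lower. The Cxcr4 call was lost without shRNA1 replicate 2 and without shRNA3 replicate 1.

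Genes that act on chemokines outside the cell were also followed. Of 7 genes of cleavage and shedding 4 were tested, and over both hairpins 1 was higher (Mmp9) and 1 lower (Adam10), beside 24.1% higher and 25.9% lower of all genes. The Adam10 call over both hairpins was lost with the knockdown libraries fitted as 1 group. Mmp9, a gelatinase that can trim CXC chemokines, was 2.96-fold higher with either hairpin (log2 change 1.55 ± 0.04 for each, limma adjusted p = 7.3e-07 and 3.58e-07). Of 9 genes of heparan sulfate, the sugar that holds chemokines at cell surfaces, 6 were higher and 1 lower over both hairpins, beside the same shares of all genes. Sdc3 rose from 26.6 ± 0.523 FPKM (WT) to 46.7 ± 1.56 under shRNA1 and 64.6 ± 2.16 under shRNA3, and Gpc1 from 121 ± 6.27 to 158 ± 6.77 and 187 ± 7.60, both carriers of this sugar. Ndst1, an enzyme that sulfates it, fell from 25.5 ± 0.924 to 17.0 ± 0.0898 and 20.7 ± 1.23, while Hs2st1, another sulfotransferase gene, went from 25.5 ± 0.141 to 28.4 ± 0.932 and 30.4 ± 0.863 and was called over both hairpins (0.19 ± 0.04, adjusted p = 0.00689). That Hs2st1 call was lost with the knockdown libraries as 1 group, and its call under shRNA1 held in 5 of 16 settings.

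Genes of the routes that regulate chemokines did not move as 1 block. Of 27 genes of the NF-kB route 24 were tested, and over both hairpins 8 were higher, 5 lower and 11 not called, a share called near the 50% of all genes, with a median log2 change of 0.05 beside -0.01 over all genes. The feedback inhibitors Tnfaip3 (A20) and Nfkbia (IkB-alpha), themselves NF-kB targets, rose with each hairpin. Tnfaip3 went from 23.7 ± 0.330 FPKM (WT) to 42.3 ± 1.07 under shRNA1 and 50.2 ± 1.60 under shRNA3, and Nfkbia from 128 ± 1.26 to 189 ± 1.06 and 206 ± 2.04. Nfkbiz, a nuclear cofactor needed for some secondary targets, rose from 30.8 ± 0.0629 to 39.1 ± 1.32 and 37.6 ± 0.776. Ripk1, a kinase of the TNF receptor complex, fell from 9.90 ± 0.467 to 7.05 ± 0.0191 and 4.69 ± 0.0566. The inducing cytokines Il1a, Il1b and Tnf were under the filter. Il1a was at 0.505 ± 0.168 FPKM for WT, 0.535 ± 0.0339 under shRNA1 and 0.0525 ± 0.0191 under shRNA3. Il1b was at 0.468 ± 0.113, 0.489 ± 0.202 and 0.108 ± 0.0672, so both were lowest under shRNA3. Tnf was instead lowest in WT, at 0.022 ± 0.0311, against 0.1435 ± 0.0728 under shRNA1 and 0.0905 ± 0.0106 under shRNA3. The number of fragments behind these low values was not estimated. These cytokine genes were named after their values were seen and were not tested.

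Of 4 interferon-response genes described, Irf7 and Irf9 fell under shRNA1 while Irf1 and Ifngr2 rose. Irf7, a transcription factor that amplifies this response, fell from 52.2 ± 1.10 FPKM (WT) to 18.9 ± 1.01 under shRNA1 and 42.4 ± 2.13 under shRNA3. Irf9, a further transcription factor of this response, fell under shRNA1 from 33.7 ± 0.383 to 21.6 ± 0.959 (log2 change -0.62 ± 0.06, limma adjusted p = 1.92e-04) and was at 30.3 ± 1.89 under shRNA3 (adjusted p = 0.0618). Irf1 and Ifngr2, a factor and a receptor subunit of the interferon-gamma response, rose with both hairpins, to 65.7 ± 1.23 and 80.9 ± 2.33 from 57.5 ± 1.77 FPKM and to 31.6 ± 1.35 and 33.6 ± 2.76 from 23.9 ± 0.648. The Irf1 call under shRNA1 was lost without WT replicate 1 and without shRNA1 replicate 1. With the knockdown libraries as 1 group the calls of Irf7, Irf9 and Irf1 over both hairpins were lost and that of Ifngr2 held.

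Chemokine mRNAs carry AU-rich elements in many cases, and 9 genes that bind or degrade such mRNAs were tested. Over both hairpins 2 were higher, 2 lower and 5 not called, beside 50% of all genes called. With the knockdown libraries as 1 group the calls of Zfp36l2, Hnrnpd and Zfp36l1 over both hairpins were lost and that of Zfp36 held. Zfp36 (tristetraprolin), which promotes decay, rose from 10.7 ± 0.446 FPKM (WT) to 37.2 ± 3.55 under shRNA1 and 23.2 ± 1.17 under shRNA3, and differed between the hairpins (log2 difference -0.66 ± 0.07, limma adjusted p = 4.21e-04). Its relative Zfp36l2 was at 74.3 ± 0.771, 66.4 ± 0.162 and 45.0 ± 0.657 FPKM, lower with each hairpin, and Zfp36l1 at 63.3 ± 0.762, 71.8 ± 0.763 and 78.8 ± 2.90, higher with each. The call of Zfp36l2 under shRNA1 was lost without any 1 of the WT or shRNA1 libraries. That of Zfp36l1 was lost without WT replicate 1 or either shRNA1 library, and with libraries rescaled to the same total. Hnrnpd (AUF1) was at 31.7 ± 0.923 FPKM for WT and 33.5 ± 1.36 under shRNA1, and fell to 18.3 ± 0.518 under shRNA3 (-0.76 ± 0.05, adjusted p = 2.30e-05). Arid5a, which the series title names upstream of AU021063 and which stabilises cytokine mRNAs, was at 12.1 ± 0.605, 11.4 ± 1.18 and 10.6 ± 0.473 FPKM and was called in none of the 4 comparisons (adjusted p from 0.0951 to 0.483).

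**Figure D4:**
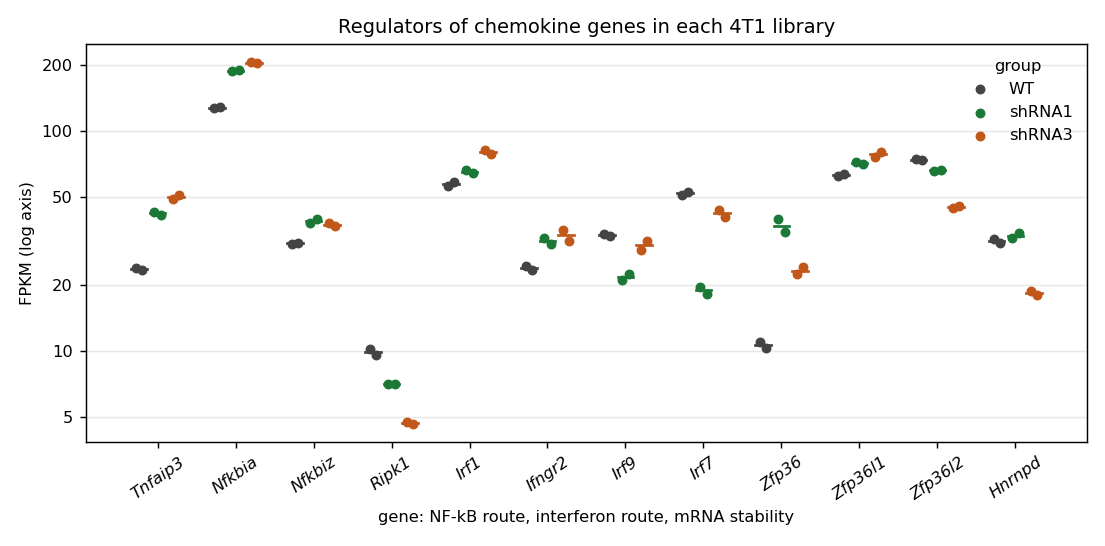
FPKM (log axis) of 12 regulators of chemokine genes, with 1 point for each library and a line at the mean of each group of 2. Tnfaip3, Nfkbia and Zfp36 lie above WT with both hairpins, Irf7 is lowest under shRNA1 at 18.2 and 19.6 FPKM, and Hnrnpd is lowest under shRNA3 at 17.9 and 18.7 FPKM.

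The genes whose log2 values over the 6 libraries were most like those of each member, by Pearson r among tested genes with a range of no less than that of the member divided by 2, were as follows. For Cxcl1 they were Gng11 (r = 0.9993) and Prmt10 (0.9959), and for Cxcl5 Ogt (0.9991) and Tgfbr1 (0.9979). For Ccl2 they were Sfrp1 (0.9985) and Stat3 (0.9968), and for Ccl7 Gbp4 (0.9992) and Txnip (0.999). Ccl5 was closest to Vrk3 (0.9972) and Bet1l (0.9846), Cxcl10 to Alg9 (0.9942) and Npr2 (0.9922), Cxcl16 to Zbtb49 (0.9961) and Nptxr (0.9873), and Ccl20 to Mras (0.9879) and Sort1 (0.9879). With 6 libraries in 3 groups and between 1016 and 9034 genes compared for each member, r describes how the groups are placed, and no p is given.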

How the data were processed

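Per the labels' protocols, mRNA libraries were made from total RNA of 4T1 cells with a kit that keeps strand. The authors deposited 1 table per library; its values were taken as FPKM, because Cufflinks 2.2.1 is among the tools in the submitters' processing notes (beside TopHat2 2.0.13, Bowtie2 2.2.3, SAMtools 0.1.19 and mm10, with no roles) and the values are neither whole nor of a common sum. The annotation, and whether counting used strand, is not stated in what was used here. FPKM is relative to each library's mapped total.

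The 11079 genes averaging 1 FPKM or more were fitted as log2(FPKM + 1) in R 4.3.3 by limma 3.58.1, using its trend option, 3 groups in 1 model, two-sided, Benjamini-Hochberg adjusted over all of them. Folds are ratios of group means, values are mean ± SD of 2 libraries, and intervals are at 95%. The members and gene lists were chosen with earlier results of these data known. By the rule for named genes, all members, from every list up to 4 called genes (by size of change over both hairpins), and the 2 genes most like each member were named. The fit was run on simulated data with normal noise and 200 changed genes, far fewer than were called here, which does not check these calls. The value of 1 fragment by length was estimated from low values of genes with 1 transcript; for Cxcl2 it was then adjusted to that gene's own values. The intervals on fragments and the limits of 0 cover counting error only.

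Positions are from GENCODE M21 (GRCm38, the assembly of mm10) and upstream windows from RefSeq (GRCm38.p6). The settings varied were the pseudocount (0.1, 0.5), the filter (none, or 5 FPKM on average), 3 scalings, a replicate block, no trend, leaving out each library, and fitting only the groups compared. Other software was SciPy 1.17.1, NumPy 2.4.6, pandas 2.3.3, matplotlib 3.10.9 and Python 3.11.15. Some results that involve withheld items are not reported here.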

Additional observations from a re-analysis of the deposited data

Results flagged for a closer look

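Cxcl1 and Cxcl5 were singled out because their changes with the 2 hairpins against the same WT libraries had opposite signs, each past the threshold, and because the test of the difference itself passed. For Cxcl1 the log2 difference, shRNA3 minus shRNA1, was -0.892 ± 0.05 (limma, adjusted p = 2.38e-05), and both shRNA3 libraries lay below both WT libraries while both shRNA1 libraries lay above them. For Cxcl5 it was -0.71 ± 0.05 (adjusted p = 7.53e-05), with the same order of libraries.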

How the results depend on the processing

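Of the calls of single members, those of Ccl2 and Cxcl1 with each hairpin, Ccl7, Cxcl5 and Cxcl16 under shRNA3, and Ccl5 and Cxcl10 under shRNA1 held in all 16 settings, and the calls between the hairpins of Cxcl1, Cxcl5, Ccl5, Ccl7, Cxcl10 and Cxcl16 did too. The number of members called stayed within 1.5 times the reported one in every setting under shRNA1 (4 to 6 called without single libraries), shRNA3 (5 to 6) and between the hairpins (6 to 6). Over both hairpins it was 1 with the knockdown libraries fitted as 1 group, beside 13.7% of all genes called. Quantile normalization called 3 members higher and 4 lower, with Cxcl1 and Cxcl5 added, beside 48.9% of all genes. Rescaling to the same total called 2 higher and 4 lower, beside 51.2%, with Cxcl5 and Cxcl16 added and Ccl20 lost. Calls also changed when single libraries were left out.

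Signs turned in 5 changes, none of which had passed as reported. Ccl2 between the hairpins ran from -0.017 (without shRNA1 replicate 1) to 0.052 without single libraries, and Ccl20 from -0.037 (the same library) to 0.216. Ccl5 under shRNA3 ran from -0.102 (without WT replicate 1; -0.001 without shRNA3 replicate 1) to 0.143, and was -0.028 with quantile normalization and -0.053 with libraries rescaled to the same total. Cxcl1 over both hairpins ran from -0.006 (without shRNA3 replicate 1) to 0.068, and was -0.035 with rescaling and -0.164 with quantile normalization, which called it lower (adjusted p = 0.00581, limma). Cxcl16 under shRNA1 ran from -0.085 (without shRNA1 replicate 1) to 0.155, and was -0.021 with rescaling. The cause was not tested. Rescaling to the same total lowered the share of higher genes among the called ones over both hairpins from 48.2% to 34.3%, under shRNA1 from 49% to 34.9% and under shRNA3 from 49.7% to 37.6%. It divides each library by its FPKM sum, which was 560862 and 568005 for WT and 582444 to 604022 with the hairpins. The median log2 change over all genes thereby went from -0.01 to -0.07 over both hairpins, from -0.013 to -0.065 under shRNA1 and from -0.008 to -0.075 under shRNA3. Over all genes, 2672 were higher and 2866 lower over both hairpins, against 798 and 715 with the knockdown libraries as 1 group. With shRNA1, 1954 were higher and 2035 lower, against 1356 and 1248 without shRNA1 replicate 2. Of 80 calls of named genes outside the members 56 held in every setting.

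The replicate numbers of the titles were not shown to pair the libraries: across genes, the difference between replicates 1 and 2 correlated at 0.01 (WT and shRNA1), -0.07 (WT and shRNA3) and 0.20 (shRNA1 and shRNA3). With the replicate block 6 members were called over both hairpins and 6 in each of the other comparisons. The share of all genes called with this block was 47% over both hairpins and 31.8% under shRNA1. It was 52.3% under shRNA3 and 38.9% between the hairpins. With 2 libraries a group, depth limits Cxcl2 and Ccl20 above all.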
